A study of Mus musculus with 5 samples.

Results

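The primary granule genes of early granulocytes were followed in sorted mouse myeloid progenitors. Members were taken by gene symbol, which gave 10 of the 52550 genes in the count table: Mpo, Elane, Prtn3, Ctsg, Prss57, Serpinb1a, Ms4a3, Nkg7, Calr3 and Igfbp4. The cells were Lin-cKIT+Sca-1- (KL) bone marrow cells, a gate that holds committed myeloid progenitors, and their RNA was measured by 3′ RNA sequencing, in which each count is a read from the end of a transcript. The BcorΔE9-10 group (n = 3 libraries) came from scl-Cre-ERT + Bcorfl/y mice and the BcorWT group (n = 2 libraries) from scl-Cre-ERT + Bcorwt/y mice, so each animal was male by its Bcor genotype. Both groups carried the same tamoxifen-inducible Cre, which is driven by Scl sequences active in haematopoietic stem cells, and both were injected with tamoxifen (1 mg a day on 5 days) at an age of 3 to 6 months, 20 weeks before sorting. Recombination removes exons 9 and 10 of Bcor and leaves a shortened protein without the domain that binds Polycomb repressive complex 1. The labels do not say that each library was a separate animal, so p-values measure the spread between these libraries, which may be partly technical. The comparison asked whether loss of intact Bcor was accompanied by a difference in the transcripts that define the promyelocyte stage.

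Neutrophil granules are filled in the order in which their proteins are made. Primary, or azurophil, granules form first, at the promyelocyte stage, and hold myeloperoxidase together with serine proteases that are packed in active form on a proteoglycan core. Secondary and tertiary granules follow at the myelocyte and later stages, when transcription of the primary granule genes normally stops. Cytosolic and secreted protease inhibitors limit the damage these enzymes can do, and transcription factors of the C/EBP, PU.1, Myb and Runx families are known to drive the protease genes.

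The summed level of the 10 genes did not separate the genotypes. Of the 9 members that passed the filter on low counts, 1 rose in BcorΔE9-10 (Igfbp4) and 0 fell, against 6.02% of the 11766 genes tested that rose and 4.09% that fell (limma, adjusted p under 0.05). Without adjustment, 2 members were higher and 2 lower at limma's p under 0.05, against 2973 of the 11766 genes tested in either direction. edgeR called 0 members in either direction, against 11.2% of all genes tested. The median log2 fold change of BcorΔE9-10 over BcorWT was 0.04 over the 9 members and 0.0043 over all genes tested. In bulk libraries of this kind, fewer cells of a type and less RNA per cell cannot be told apart.

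The protease genes Elane, Prtn3 and Ctsg carry the letters of binding motifs in the bases before their start, and these are shown because the transcripts of PU.1 (Spi1) and Myb, given further on, differed between the genotypes. The lines hold the 120 bases before the RefSeq start (build GRCm38.p6, the same coordinates as mm10), 5′ to 3′ on the strand of the gene. RefSeq starts can differ from the gene spans of the count table, which are given further on. By those spans the Prtn3 bases lie inside the gene and the Elane bases run into it. Capitals mark any match, on either strand, to C/EBP TTNCNNAA, PU.1 GAGGAA, Myb AACNG or Runx TGTGGT.
Elane, chr10:79886192-79886311, plus strand: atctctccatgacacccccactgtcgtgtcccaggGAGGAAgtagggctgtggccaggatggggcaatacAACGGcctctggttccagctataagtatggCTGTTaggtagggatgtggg
Prtn3, chr10:79879547-79879666, plus strand: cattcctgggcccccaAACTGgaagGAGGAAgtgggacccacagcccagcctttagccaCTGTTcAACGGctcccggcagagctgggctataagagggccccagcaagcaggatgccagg
Ctsg, chr14:56102575-56102694, minus strand: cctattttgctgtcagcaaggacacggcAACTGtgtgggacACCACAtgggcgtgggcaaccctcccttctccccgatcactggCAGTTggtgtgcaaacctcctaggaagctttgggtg

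The PU.1 letters began 85 bases before the RefSeq start of Elane and 95 bases before that of Prtn3. In the full windows of 300 bases (250 before and 50 after the start), GAGGAA occurred in Mpo, where it was found 2 times, and in Elane, Prtn3, Ctsg and Ms4a3, whereas the windows of Nkg7, Igfbp4 and Calr3 did not hold these letters. Of 32851 mouse windows of that length, 28.3% held GAGGAA, 40.7% held TTNCNNAA, 80.3% held AACNG and 16.8% held TGTGGT. In the 120 bases before the start, the length printed above, the shares were 11.6%, 18.0%, 46.9% and 6.7% in the same order. Windows were found for 8 of the 10 members. The letters describe the windows and say nothing of binding in these cells.

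The 10 genes are spread over chromosomes 7, 8, 10, 11, 13, 14 and 19. Prss57 (chr10:79781474-79790961, minus strand), Prtn3 (chr10:79874476-79883174, plus strand) and Elane (chr10:79886247-79888215, plus strand) lie together on chromosome 10 in mm10. The end of Prtn3 is 3072 bases from the start of Elane, and 83514 bases separate Prss57 from Prtn3. The other protease gene, Ctsg, lies apart at chr14:56099881-56102574 on the minus strand. Mpo (chr11:87793581-87804413) and Igfbp4 (chr11:99041244-99054392) are both on the plus strand of chromosome 11. Ms4a3 occupies chr19:11629496-11640851 on the minus strand, Nkg7 chr7:43437073-43438249 on the plus strand, Serpinb1a chr13:32842092-32851185 on the minus strand and Calr3 chr8:72424176-72443870 on the minus strand.

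Mpo, which encodes the peroxidase that turns hydrogen peroxide and chloride into hypochlorous acid, was the most abundant member. It gave 46819, 26303 and 42659 counts in BcorΔE9-10 and 36499 and 35726 in BcorWT. As CPM, the counts in 1e+06 counts of a TMM-scaled library, these were 5534, 4292 and 4986 against 5183 and 5294. The lowest and the highest value were both from BcorΔE9-10, so the groups overlapped. Mpo ranked 8 or 9 among all genes by abundance in each library. The means were 4937 ± 622 CPM (SD, n = 3) and 5238 ± 78.2 CPM (SD, n = 2), and the fold change on the log2 scale was -0.09 (SE 0.0935, 95% interval -0.29 to 0.11, limma adjusted p = 0.593). The sign of that small difference turned to 0.0033 when BcorΔE9-10 library 2 was left out, and to 0.058 when libraries were scaled by total counts alone.

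Prtn3, which encodes proteinase 3, was the most abundant of the serine protease genes. It stood at 1378, 1316 and 1285 CPM in BcorΔE9-10 and at 1268 and 1761 CPM in BcorWT. Both extremes came from the BcorWT libraries, with the 3 BcorΔE9-10 libraries close together between them. The group means were 1326 ± 47.5 and 1514 ± 349 CPM, and the log2 fold change of -0.17 (SE 0.113, 95% interval -0.41 to 0.07) did not pass the test (limma adjusted p = 0.362). Which BcorWT library was kept set the result: the value was -0.42 (adjusted p = 0.0302) without BcorWT library 1 and 0.069 (adjusted p = 0.750) without library 2. Plppr3, on the other strand of the same locus, had 230 to 332 counts.

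Elane, the neutrophil elastase gene next to Prtn3, stood at 436, 415 and 449 CPM in BcorΔE9-10 and at 364 and 440 CPM in BcorWT. The BcorWT libraries again differed more from each other than the BcorΔE9-10 libraries did, and the groups overlapped. Mean levels were 433 ± 17.1 and 402 ± 53.8 CPM, a log2 fold change of 0.12 (SE 0.107, 95% interval -0.11 to 0.34, limma adjusted p = 0.527). Prss57, which encodes the neutrophil serine protease NSP4, varied least among the proteases. It had 296, 298 and 290 CPM in BcorΔE9-10 and 277 and 298 CPM in BcorWT. Its log2 fold change was 0.04 (SE 0.102, 95% interval -0.18 to 0.25, limma adjusted p = 0.870), and Fstl3 on the other strand held 10 to 39 counts. Without BcorWT library 1 both small values changed sign, to -0.026 for Elane and -0.024 for Prss57.

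Ctsg, which encodes the chymotrypsin-like protease cathepsin G, was the protease with the widest gap between the genotypes. Its counts were 4406, 3541 and 4145 in BcorΔE9-10 and 2572 and 3215 in BcorWT. The corresponding levels were 521, 578 and 484 CPM against 365 and 476 CPM. The groups did not overlap, but the lowest BcorΔE9-10 library and the higher BcorWT library were only 484 and 476 CPM. Mean levels were 528 ± 47.1 and 421 ± 78.6 CPM, with a log2 fold change of 0.33 (SE 0.120, 95% interval 0.08 to 0.59). The adjusted p of 0.0895 (limma; unadjusted p = 0.0131) missed the threshold. It passed in 5 of the 16 alternatives. These were the replicate number as a block (0.39, adjusted p = 0.0138), the block with a GC correction (0.45, 0.00363) and total counts alone (0.48, 0.0130). The others were no filter on low counts (0.34, 0.0461) and the fit without BcorWT library 2 (0.53). BcorΔE9-10 library 3 shares its number with no BcorWT library, so under the block it added nothing to the genotype effect. Without BcorWT library 1 the value was 0.13 (adjusted p = 0.622).

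**Figure D1:**
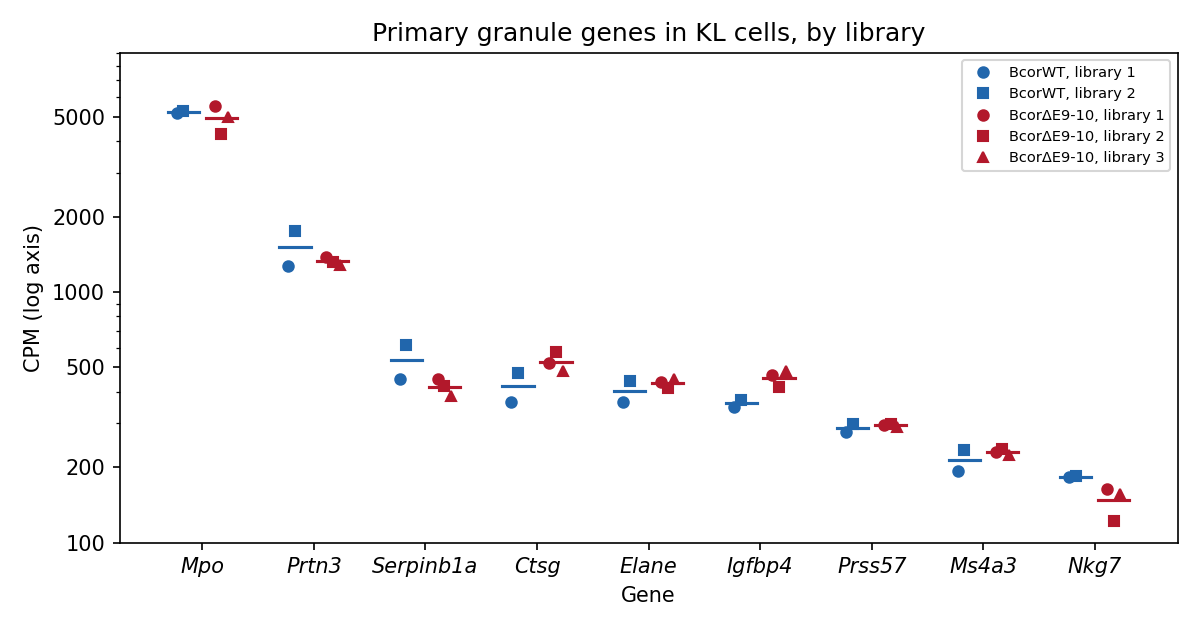
Level of the 9 tested primary granule genes in each library, in CPM on a log axis, ordered by BcorWT mean. Points are libraries, horizontal lines are group means (BcorWT n = 2, BcorΔE9-10 n = 3). Mpo lay between 4292 and 5534 CPM, and the groups were apart for Ctsg, Igfbp4, Nkg7 and Serpinb1a only.

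Serpinb1a encodes the cytosolic inhibitor that inactivates elastase, proteinase 3 and cathepsin G. Its level was 449, 422 and 385 CPM in BcorΔE9-10 and 451 and 617 CPM in BcorWT. The groups did not overlap, although BcorΔE9-10 library 1 and BcorWT library 1 were almost level. The means were 419 ± 32.2 and 534 ± 118 CPM, and the log2 fold change was -0.34 (SE 0.124, 95% interval -0.60 to -0.07), short of the threshold at limma adjusted p = 0.0993. Without BcorWT library 1 the difference grew to -0.57 (adjusted p = 0.00916), and without BcorWT library 2 it shrank to -0.11 (adjusted p = 0.660). It also passed with the GC correction (-0.43, adjusted p = 0.0320) and with that correction and the replicate block (-0.37, adjusted p = 0.0253).

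Of the membrane proteins, Ms4a3 is a four-span protein made by granulocyte and monocyte progenitors, and Nkg7 is a granule membrane protein that is also made by NK cells and cytotoxic T cells. Ms4a3 stood at 231, 237 and 224 CPM in BcorΔE9-10 and at 194 and 235 CPM in BcorWT. These levels overlapped, with a log2 fold change of 0.11 (SE 0.114, 95% interval -0.13 to 0.35, limma adjusted p = 0.580), which became -0.034 without BcorWT library 1. Nkg7 stood at 164, 122 and 156 CPM against 183 and 184 CPM. All 3 BcorΔE9-10 libraries were below the BcorWT libraries, which were almost equal. The Nkg7 means were 147 ± 22.5 and 183 ± 0.684 CPM, a log2 fold change of -0.32 (SE 0.130, 95% interval -0.59 to -0.04, limma adjusted p = 0.138). It did not pass the test under any of the 16 alternatives, with values from -0.40 to -0.17.

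Markers of lymphocytes bear on Nkg7, since those cells also make it. The summed level of the T and NK cell list was 32.3 to 52.2 CPM in BcorΔE9-10 and 18.8 to 32.9 CPM in BcorWT. Of its 7 tested genes 1 rose and 0 fell, the riser being Il2rb, a receptor chain for interleukin 2 and 15 (1.22, limma adjusted p = 0.0265). At limma's unadjusted p under 0.05, 3 were higher and 0 lower. Among them, named after their values were seen, were Klrd1 (2.00, adjusted p = 0.168) and Ncr1 (1.44, adjusted p = 0.143), both on low counts. In all, 5 of the 7 values were positive and 2 negative. Cd3e, a part of the T cell receptor complex, had 0 to 3 counts in each library. The summed ranges met at their edges, and the part of lymphocytes in the level of Nkg7 was not tested. Il2rb did not pass without BcorΔE9-10 library 2 (adjusted p = 0.0557), BcorΔE9-10 library 3 (0.0957) or BcorWT library 2 (0.62, adjusted p = 0.229), or with the GC correction and replicate block (0.0712).

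Igfbp4 encodes a secreted protein that binds insulin-like growth factors and is not a granule enzyme. Its counts were 3932, 2570 and 4128 in BcorΔE9-10 and 2439 and 2513 in BcorWT. The levels were 465, 419 and 482 CPM against 346 and 372 CPM, so that each BcorΔE9-10 library lay above both BcorWT libraries. The means of 456 ± 32.5 and 359 ± 18.4 CPM gave a log2 fold change of 0.34 (SE 0.104, 95% interval 0.12 to 0.56), 1.27-fold, which passed the test (limma adjusted p = 0.0443). The direction was the same under the 16 alternatives, from 0.29 to 0.49, but the call was kept in 8 of them. Leaving out BcorΔE9-10 library 1 (adjusted p = 0.140), BcorΔE9-10 library 3 (0.168), BcorWT library 1 (0.235) or BcorWT library 2 (0.0504) ended it, as did the replicate block (0.0952), edgeR's test (0.0564), DESeq2 size factors (0.0538) and thinning the libraries to the smallest total (0.0517). Of the 30-base words in the last 300 bases of the transcript, 56.83% also occur in other genes, which was true of no word of the other 9 members. Reads from those copies could not be told apart from Igfbp4 where the mapping allowed them.

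Calr3, a relative of calreticulin known mainly from the testis, had 0, 1 and 1 counts in BcorΔE9-10 and 0 counts in both BcorWT libraries. At these depths 3 counts correspond to 0.361 to 0.500 CPM before scaling, so Calr3 was at or under the limit of detection in each library, and no fold change was computed. It was the only member that did not pass the filter.

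The order of the members was similar in both genotypes. In BcorWT it ran Mpo, Prtn3, Serpinb1a, Ctsg, Elane, Igfbp4, Prss57, Ms4a3 and Nkg7. Serpinb1a and Ctsg, Ctsg and Elane, and Elane and Igfbp4 were neighbours whose libraries overlapped. In BcorΔE9-10 Ctsg followed Prtn3, and after it came Igfbp4, Elane and Serpinb1a, and the libraries of the last 3 overlapped. Transcript ends were counted, so these levels compare genes without a correction for length. The groups did not overlap for 4 of the 9 tested members (Ctsg and Igfbp4 higher, Nkg7 and Serpinb1a lower in BcorΔE9-10), near the 42.8% of all tested genes for which that was so.

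**Figure D2:**
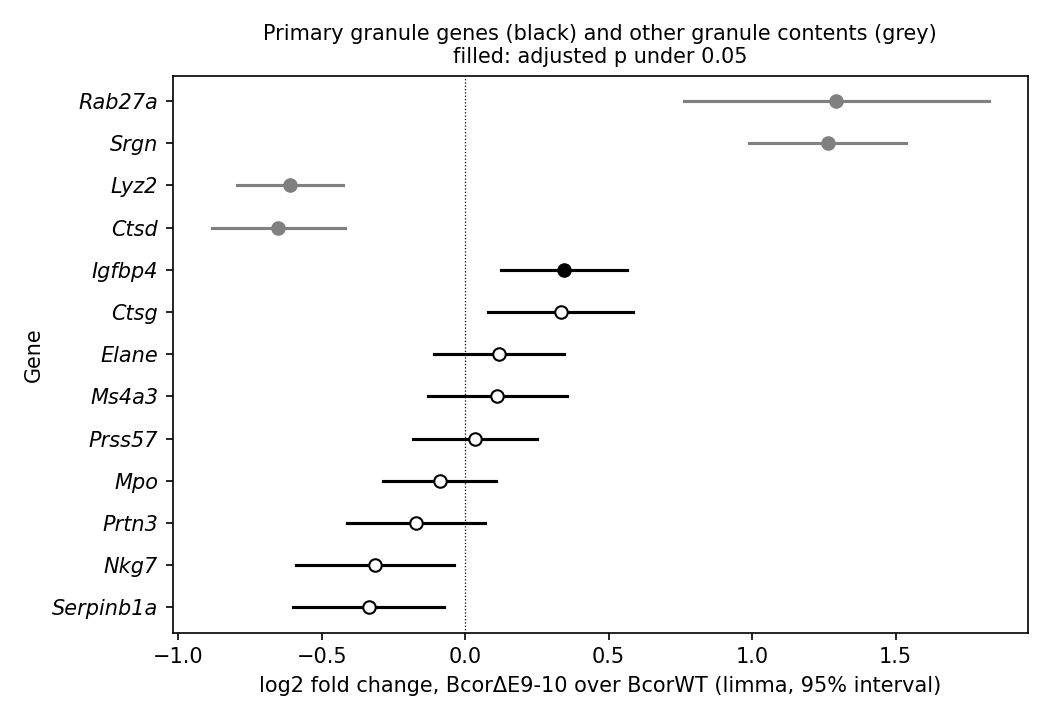
Log2 fold change of BcorΔE9-10 over BcorWT with its 95% interval from limma, for the 9 tested members (black) and 4 other granule genes (grey), filled where the adjusted p was under 0.05. The members lay between -0.34 and 0.34 and only Igfbp4 was filled, whereas Srgn was at 1.26 and Ctsd at -0.65.

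Together the 10 genes took 0.965%, 0.827% and 0.941% of all counts for BcorΔE9-10 and 0.802% and 0.921% for BcorWT. The Wilson intervals were narrow (0.820 to 0.835% for BcorΔE9-10 library 2 and 0.796 to 0.808% for BcorWT library 1) and cover counting error only. Means were 0.911% ± 0.0735 (SD, n = 3) and 0.861% ± 0.0842 (SD, n = 2), and the groups overlapped. The log2 difference of 0.081 was -0.015 without BcorWT library 1 and 0.18 without BcorWT library 2. After TMM scaling the sums were 9472, 8100 and 8742 CPM in BcorΔE9-10 and 8630 and 9677 CPM in BcorWT. Mpo supplied 53.0 to 60.1% of these counts. The 4 proteases together amounted to 0.475, 0.607 and 0.503 times Mpo in BcorΔE9-10 and 0.439 and 0.562 times Mpo in BcorWT, with overlap.

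Ratios within a library do not depend on how libraries are scaled. Ctsg amounted to 9.41%, 13.5% and 9.72% of Mpo in BcorΔE9-10 and to 7.05% and 8.999% in BcorWT, and Igfbp4 to 8.40%, 9.77% and 9.68% against 6.68% and 7.03%. Both were higher in each BcorΔE9-10 library. Nkg7 was lower in each, at 2.96%, 2.84% and 3.14% of Mpo against 3.52% and 3.47%. The ratios of Elane, Prtn3, Ms4a3, Prss57 and Serpinb1a overlapped, so Serpinb1a was apart between the groups in CPM but not relative to Mpo. Ctsg, Igfbp4 and Nkg7 were apart in CPM as well, as were 42.8% of all tested genes. The share of all genes apart relative to Mpo was not computed.

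The genes of the later granules were set beside the primary granule genes, since they follow them in maturation. Of 29 tested secondary and tertiary granule genes, 11 (37.9%) fell and 0 rose with limma, with a median log2 fold change of -0.51. edgeR also called 11 and 0, and at limma's unadjusted p under 0.05, 18 were lower and 2 higher. With total counts alone 8 fell and 2 rose. Ltf, which encodes the iron-binding protein lactoferrin, fell from 4834 ± 485 to 2745 ± 268 CPM (log2 fold change -0.81, SE 0.0932, limma adjusted p = 7.3e-05). Hp, which encodes haptoglobin, fell from 794 ± 75.1 to 438 ± 34.7 CPM (-0.85, SE 0.103, adjusted p = 9.8e-05). The number that fell was 8 without BcorΔE9-10 library 3 and 16 without BcorWT library 2, and the median was -0.33 without BcorWT library 1 and -0.62 without BcorWT library 2. The difference between these genes and the primary granule genes was described by counts and medians and was not itself tested.

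The ratio of summed primary to summed secondary and tertiary granule counts was 0.176, 0.171 and 0.182 in BcorΔE9-10 and 0.143 and 0.160 in BcorWT. Every BcorΔE9-10 library was above both BcorWT libraries, with means of 0.176 ± 0.00524 and 0.152 ± 0.0119 (log2 difference 0.22). Camp, the cathelicidin gene, chosen here after its values were seen, held 47.2 to 53.1% of the secondary sum in BcorΔE9-10 and 30.6 and 39.4% in BcorWT. Camp was at 24926 ± 2096 against 21132 ± 3796 CPM (0.25, limma adjusted p = 0.114). Without Camp the ratios were 0.350, 0.364 and 0.344 against 0.206 and 0.264, a log2 difference of 0.59. The gap with Camp included was 0.14 without BcorWT library 1 and 0.30 without BcorWT library 2.

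**Figure D3:**
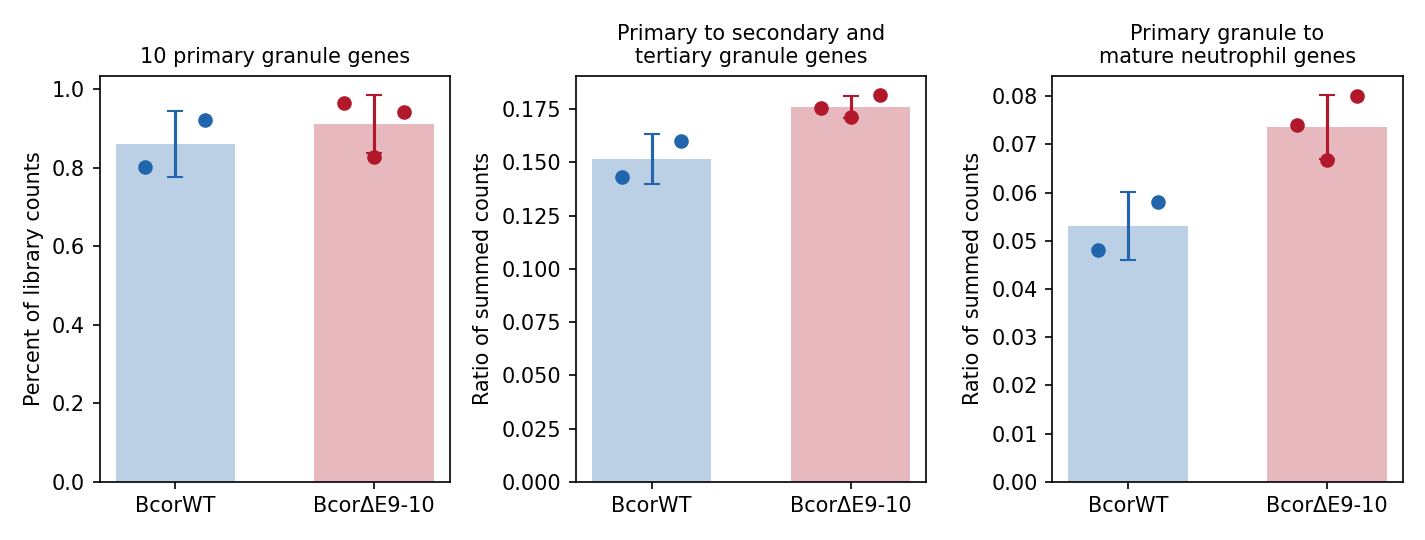
Share of library counts held by the 10 primary granule genes (left, percent), and their summed counts divided by those of secondary and tertiary granule genes (middle) and of mature neutrophil genes (right). Bars are means, error bars SD and points libraries (BcorWT n = 2, BcorΔE9-10 n = 3). The shares overlapped, while both ratios were higher in each BcorΔE9-10 library.

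Mature neutrophil genes moved together with the secondary granule genes. They took 11.77 to 13.02% of the counts in BcorΔE9-10 and 15.8 and 16.7% in BcorWT, although CD11b+ and Gr-1+ cells are removed by the lineage gate. Of 16 tested genes 7 (43.8%) fell and 0 rose, with a median of -0.44. Without BcorWT library 2, 9 genes fell and the median was -0.70, and 5 genes fell without BcorWT library 1 or without BcorΔE9-10 library 3. Ly6g, the neutrophil surface antigen, fell from 445 ± 176 to 219 ± 10.5 CPM (-0.97, limma adjusted p = 0.00204), a value of -0.55 without BcorWT library 1 and of -1.37 without library 2. Clec4d, a lectin receptor, was at -1.23 (adjusted p = 0.0287) and lost its call without any of the BcorΔE9-10 libraries 1 to 3 (adjusted p of 0.0688, 0.0618 and 0.111) and without BcorWT library 1 (0.241). The ratio of primary granule to mature neutrophil counts was 0.0741, 0.0668 and 0.0799 in BcorΔE9-10 and 0.0481 and 0.0581 in BcorWT. S100a8 and S100a9, the calprotectin subunits, named after their values were seen, held 97.4 to 98.0% of the mature neutrophil counts in each library. Without them the ratios were 3.09, 2.87 and 3.04 against 1.93 and 2.84, so that BcorWT library 2 lay just under the lowest BcorΔE9-10 library. How much of the later granule genes' difference came with these cells was not tested.

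Other contents of azurophil granules, listed by their known location, spanned log2 fold changes of -0.83 to 1.29, against -0.34 to 0.34 for the 9 members. Of 30 tested genes 3 rose and 6 fell (10% and 20%), with a median of -0.20. Srgn encodes serglycin, the proteoglycan core that holds the proteases, and had 3728, 2797 and 3716 counts in BcorΔE9-10 against 1089 and 1492 in BcorWT. Srgn rose from 188 ± 47.0 to 444 ± 11.4 CPM (1.26, SE 0.130, limma adjusted p = 3.1e-05). Rab27a, the small GTPase that brings granules to the membrane, rose from 17.6 ± 3.78 to 45.2 ± 14.2 CPM (1.29, adjusted p = 0.00367) and overlaps Gm27186 on its own strand. The other riser, named after its values were seen, was Arsb, a lysosomal sulphatase (1.06, adjusted p = 0.00132).

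Lysozyme and a cathepsin headed the genes of that list that fell. Lyz2, the list's most abundant gene, fell from 7021 ± 184 to 4613 ± 512 CPM (-0.61, SE 0.0874, limma adjusted p = 0.000389), and 34.69% of its end words occur in other genes. Ctsd, an aspartic protease of lysosomes, fell from 314 ± 14.97 to 200 ± 17.2 CPM (-0.65, adjusted p = 0.00144) and overlaps Gm49369. Lyz2, Ctsd, Srgn and Rab27a kept their calls under all 16 alternatives. The number of the list that fell was 3 with total counts alone, where the list's median was -0.054, and 4 without BcorΔE9-10 library 1.

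The inhibitors other than Serpinb1a gave few calls. Of 8 tested genes 1 rose and 1 fell, with a median of -0.39. Without BcorWT library 2, 0 rose and 3 fell, without BcorWT library 1 neither direction had a call and the median was -0.25, and without BcorΔE9-10 library 3, 0 fell. Spint2, an inhibitor of trypsin-like proteases on the cell surface, rose from 1.16 ± 0.0349 to 9.09 ± 3.16 CPM (2.79, limma adjusted p = 0.0120), on 8 counts in each BcorWT library, and lost its call without BcorWT library 1 (0.0972) or 2 (0.0568). Stfa1, a cysteine protease inhibitor, fell (-1.44, adjusted p = 0.0273), but 75.28% of its end words occur in other genes and the call was lost in 6 of the 16 alternatives. These were edgeR (0.0602), DESeq2 (0.0690), the replicate block (-0.83, 0.136), the block with the GC correction (0.0747), and the fits without BcorΔE9-10 library 3 (-0.87, 0.140) and without BcorWT library 1 (0.0588). Slpi, the most abundant, inhibits elastase and cathepsin G and was at 233, 241 and 214 CPM against 382 and 199 CPM (-0.27, adjusted p = 0.376). Its value rested on which BcorWT library was kept, being 0.20 (adjusted p = 0.484) without library 1 and -0.73 (adjusted p = 0.000462) without library 2.

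Among the granule proteases of other cells, 2 of 5 tested genes fell and 0 rose, with a median of -0.74 that became 0.43 without BcorWT library 1. Those that fell were the basophil proteases Prss34, from 179 ± 51.8 to 74.4 ± 8.57 CPM (-1.24, limma adjusted p = 0.000170), and Mcpt8, from 101 ± 31.6 to 46.6 ± 5.23 CPM (-1.08, adjusted p = 0.00111). Both kept their calls under the 16 alternatives.

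Granule proteins are folded in the endoplasmic reticulum. Of 21 tested genes for folding and secretion 1 rose and 4 fell, and the median of -0.11 became 0.015 without BcorWT library 2, 0.039 with total counts alone and -0.25 without BcorWT library 1. The number that fell was 2 without BcorΔE9-10 library 2, BcorΔE9-10 library 3 or BcorWT library 2, and also with sample quality weights. Sec61a1, the pore through which new proteins enter, fell from 429 ± 1.11 to 281 ± 18.9 CPM (-0.61, limma adjusted p = 0.00132) and kept its call under the 16 alternatives. Hspa5, the main chaperone there (-0.47, adjusted p = 0.00476), and the chaperone Hyou1 (-0.48, adjusted p = 0.0364) were named after their values were seen. Creld2, a stress-induced folding factor, fell (-0.87, adjusted p = 0.0425) but lost its call in 10 of the 16 alternatives, among them without BcorΔE9-10 library 1 (0.0891), 2 (0.123) or 3 (0.0710) or BcorWT library 2 (0.178). Selenos, a protein of the disposal pathway for misfolded proteins, rose (0.58, adjusted p = 0.0394) and lost its call in 6, among them without BcorΔE9-10 library 2 (0.121) or 3 (0.0815) or BcorWT library 2 (0.203).

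In a list of transcription factors of progenitors and early granulocytes, not all particular to the promyelocyte stage, more genes rose than fell. Of 20 tested genes 6 rose and 1 fell (30% and 5%), with a median of 0.30. The median was 0.14 without BcorWT library 1, 0.44 without BcorWT library 2 and 0.18 with the GC correction, and 0 fell without BcorΔE9-10 library 1. Myc, a driver of proliferation, rose from 2.54 ± 0.384 to 12.9 ± 3.28 CPM (2.26, SE 0.446, limma adjusted p = 0.00401). Cebpb, the C/EBP factor of emergency granulopoiesis, rose from 22.3 ± 2.41 to 57.0 ± 14.3 CPM (1.31, adjusted p = 0.00128) and has Tmem189 on the other strand. Both kept their calls under the 16 alternatives. The other genes that rose were Myb, Gata2, which is also among the basophil genes, and, named after their values were seen, Etv6 (1.10, adjusted p = 0.000374) and Cebpg (1.04, adjusted p = 0.0205). Cebpa and Cebpe, the C/EBP factors of early and later granulocyte differentiation, named on the same terms, did not pass and were at -0.34 (adjusted p = 0.166) and -0.20 (adjusted p = 0.331).

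Myb and Spi1 went in opposite directions. The printed lines of Elane and Prtn3 hold letters of both motifs, and that of Ctsg holds Myb and Runx letters, its GAGGAA lying further upstream. Myb, the most abundant factor of the list, was at 320, 298 and 299 CPM in BcorΔE9-10 and at 239 and 220 CPM in BcorWT. It rose (0.41, SE 0.106, limma adjusted p = 0.0201), but with a correction for GC content of the transcript end its value was 0.15 (adjusted p = 0.422; 0.482 with the replicate block added), and it lost its call without BcorΔE9-10 library 1 (0.0887), BcorΔE9-10 library 3 (0.0638) or BcorWT library 2 (0.0887). Spi1, which encodes PU.1, was at 157, 146 and 168 CPM against 230 and 206 CPM. It fell (-0.47, SE 0.114, adjusted p = 0.0154), a call lost without BcorΔE9-10 library 1 (0.0524), without BcorWT library 1 (0.109) and with total counts alone (-0.33, 0.0881). The groups of each factor did not overlap, which was so for 42.8% of all tested genes. Of the genes whose windows are printed, the groups of Ctsg did not overlap, and those of Elane and Prtn3 did. Whether either factor bears on the levels of these genes was not tested.

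**Figure D4:**
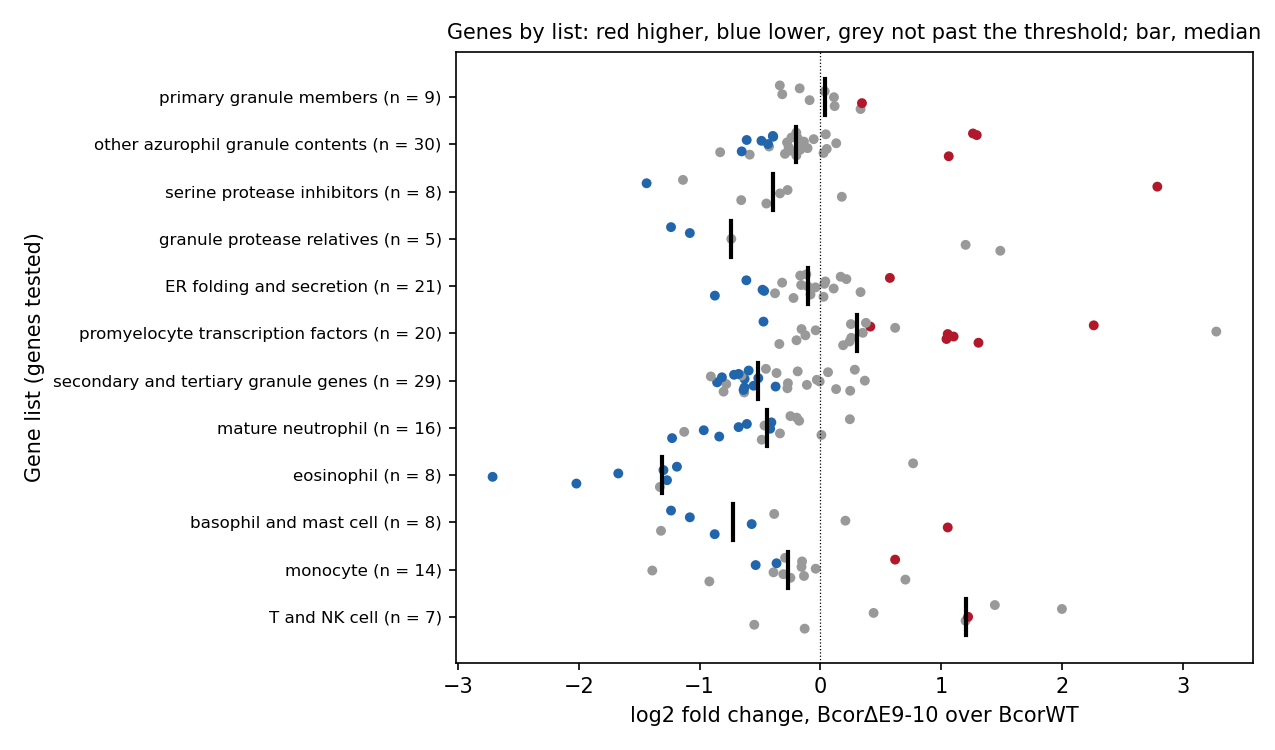
Log2 fold change of each tested gene by list (red rose, blue fell, grey did not pass limma's adjusted p threshold), with a bar at the list's median. The 9 primary granule members lay around 0 (median 0.04), while secondary and tertiary granule genes had a median of -0.51, mature neutrophil genes of -0.44 and eosinophil genes of -1.31.

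Genes of eosinophils, the granulocytes that keep a store of ribonucleases, were mostly lower. Of 8 tested eosinophil genes 6 fell and 0 rose, and their summed level was 290 to 453 CPM in BcorΔE9-10 and 833 to 987 CPM in BcorWT. Siglecf of the same list, named after its values were seen, went the other way without overlap. It stood at 12.8 ± 1.09 CPM in BcorΔE9-10 and 7.66 ± 2.03 CPM in BcorWT (0.77, limma unadjusted p = 0.0114, adjusted p = 0.0831). Ear6 and Ear1, eosinophil-associated ribonucleases, were at -2.71 and -2.02 (limma adjusted p of 0.000279 and 3.1e-05), and 82.66% of the end words of Ear1 are shared. Of 8 basophil and mast cell genes 4 fell and 1 rose, the riser being Gata2, a factor that progenitors also make (1.05, adjusted p = 0.00726). Their sum was 354 to 461 CPM against 602 to 779 CPM, and without BcorWT library 1 the number that fell was 2.

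Of 14 monocyte genes 2 fell and 1 rose, with sums of 1322 to 1467 CPM against 1701 to 1766 CPM. Lgals3, a galectin, was at -0.54 and at -0.22 (limma adjusted p = 0.457) without BcorWT library 1, and its adjusted p was 0.0689, 0.0858 and 0.105 without BcorΔE9-10 libraries 1 to 3. Mpeg1, a pore-forming protein of phagocytes, was at 0.62 (adjusted p = 0.0236; 0.0606, 0.0789 and 0.195 without BcorΔE9-10 libraries 2 and 3 and BcorWT library 1). Ly6c2, a monocyte surface antigen with 46.13% of its end words shared, was at -0.36 (adjusted p = 0.0148; 0.0634, 0.0603, 0.0544 and 0.0523 without BcorΔE9-10 libraries 1 and 3 and BcorWT libraries 1 and 2). With total counts alone Lgals3 (0.106) and Ly6c2 (0.0966) also lost their calls, as did Lgals3 (0.0586) and Mpeg1 (0.0568) with the GC correction, and Ly6c2 (0.106) and Mpeg1 (0.0797) with that correction and the replicate block. The erythroid list had 1 of 9 genes that rose, Car1, a carbonic anhydrase (2.46, adjusted p = 0.0443; 0.0781 and 0.0838 without BcorΔE9-10 libraries 2 and 3, 0.143 and 0.0908 without BcorWT libraries 1 and 2, 0.0873 with sample quality weights and 0.0626 with the GC correction). The number of erythroid genes that rose was 5 with edgeR, 7 without the filter on low counts and 6 without BcorΔE9-10 library 1, and it was 0 without BcorΔE9-10 library 2, BcorΔE9-10 library 3 or BcorWT library 1. Megakaryocyte and B lymphoid genes gave 0 calls in 5 and 7 tests with limma and with edgeR (1 and 2 at unadjusted p under 0.05, all higher). The part of any of these cells in the levels of the primary granule genes was not tested.

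The gate was checked on the genes of its surface markers. Kit, the receptor by which the cells were sorted, was detected in each library and rose from 18.9 ± 0.977 to 51.0 ± 2.14 CPM (1.43, SE 0.173, limma adjusted p = 9.8e-05). Ly6a, which encodes Sca-1, had 3 to 8 counts. The list used for this check also held progenitor surface genes that are not part of the gate, and 2 of its 8 tested genes rose and 1 fell. These were Kit, Cd48, a surface protein outside the gate (1.36, adjusted p = 0.0184; 0.0731 and 0.0530 without BcorWT libraries 1 and 2) and Ly6g. Itgam, which encodes CD11b of the lineage gate and was named after its values were seen, had 651 to 1132 counts in each library and stood at 124 ± 6.83 CPM in BcorΔE9-10 and 96.4 ± 0.0274 CPM in BcorWT (0.37, adjusted p = 0.0618), with no overlap and with the sign opposite to that of Ly6g. Bcor had 196, 168 and 185 counts in BcorΔE9-10 and 83 and 109 in BcorWT (0.78, adjusted p = 0.0313). Reads at the transcript end lie outside the deleted exons, so the level does not check the genotype. Total counts were 5998924 to 8303999 per library, and 1189 genes (10.1%) were called in all.

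The mean profile of Mpo, Elane, Prtn3, Ctsg and Prss57, on the log2 scale with each gene's own mean removed, stood at 0.063, -0.0050 and -0.0050 for BcorΔE9-10 and at -0.15 and 0.10 for BcorWT. The BcorWT libraries held both extremes, so the largest distance lay within a genotype. Of 3786 candidates, the genes with the smallest root mean square difference from that profile over the 5 libraries were Uchl5 (0.0161), Fam117a (0.0168), Mcm3 (0.0240), Caprin1 (0.0252) and Naa50 (0.0332). Their log2 fold changes lay between -0.017 and 0.049. The likeness is over 5 libraries and is a description only.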

How the data were processed

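RNA from KL cells was sequenced from the transcript end (QuantSeq 3′, single-end), as described in the study's methods. Per the labels and methods, the authors discarded reads of low quality, trimmed the start of reads and their poly-A-derived ends (cutadapt, version 1.7 in the submitters' processing notes and a later version in the methods), aligned to mm10 with HISAT2 and assigned reads to genes using featureCounts from Subread (version 1.5.0-p3). The authors deposited unnormalised read counts for each gene. How multi-mapping reads and strand were handled is not given in the sources used here. Transplant libraries and other assays of the study were not analysed here.

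A filter on low counts (filterByExpr, edgeR 4.0.16, with a minimum of 10 and a total of 15) left 11766 genes, which were scaled by TMM. The effect of genotype came from limma-voom (limma 3.58.1, R 4.3.3), two-sided, and p-values were adjusted by Benjamini-Hochberg across the 11766 genes. Norm factors were 1.02 to 1.08 in BcorΔE9-10 and 0.931 to 0.953 in BcorWT. edgeR's quasi-likelihood test, DESeq2 (version 1.42.0), other scalings and filters, a replicate block, a GC correction (lowess, span 0.3, on the last 300 bases) and leaving out each library were alternatives. Within a group, chi-square per gene between libraries was 5.94 to 11.1, above sampling noise, so none was a duplicate. The procedures were tested on simulated data.

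The members and lists were chosen with earlier results of these data known. Besides the members, the 2 largest rises and 2 largest falls called in each list were named and, for contents, inhibitors, protease relatives and transcription factors, the most abundant gene. Of 52403 genes with a symbol, 95.24% had the same start and end in GENCODE M21.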

Additional observations from a re-analysis of the deposited data

How the results depend on the processing

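The members' results were small, and the number called ranged from 0 to 3. It was 1 with limma and 0 with edgeR, with DESeq2 size factors and with all libraries thinned to the smallest total. It was 2 with total counts alone, without a filter on low counts and with the GC correction, and 3 with that correction and the replicate block together. The share of all tested genes called was 10.1% with limma, 11.2% with edgeR, 10.4% with DESeq2 size factors and 10.2% after thinning. That share was 12% with total counts alone, 6.65% without the filter, 8.62% with the GC correction and 10.7% with the correction and block. The members' median of 0.04 became 0.18 with total counts alone, where the median of all genes moved to 0.15, and 0.14 with the GC correction and replicate block. Total counts alone also gave 1210 genes higher and 197 lower, against 708 and 481.

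Leaving out 1 library gave 558 to 1200 genes called in all, 281 to 653 higher and 235 to 547 lower, with 0 to 2 members called and a members' median of -0.034 to 0.094. The log2 ratio of primary to secondary granule counts was 0.14 to 0.30 without 1 library and 0.59 without Camp, a setting chosen after seeing the data. Over the fits without 1 library the values ran from -0.17 to 0.0033 for Mpo, -0.026 to 0.26 for Elane, -0.034 to 0.26 for Ms4a3, -0.42 to 0.069 for Prtn3 and -0.73 to 0.20 for Slpi. Signs turned for Mpo (0.058 with total counts alone, 0.016 with the GC correction, 0.0055 with the GC correction and replicate block, 0.0033 without BcorΔE9-10 library 2), Elane (-0.026), Ms4a3 (-0.034), Prss57 (-0.024) and Slpi (0.20) without BcorWT library 1, and Prtn3 (0.069) without BcorWT library 2. With 1 BcorWT library left, it is assumed to vary like the BcorΔE9-10 libraries.

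The replicate numbers are shared by 2 pairs of libraries, whose deviations from their group means correlated at 0.0573 and 0.0667. The deviations of 2 BcorWT libraries mirror each other, so these values are not separate checks and cannot decide whether libraries were paired. The sources used here do not say whether the numbers mark a shared day or batch. The replicate block gave 1454 calls, of which 1087 were also made without it, and 1 member, Ctsg in place of Igfbp4. BcorΔE9-10 library 3 has no partner by number, so the genotype effect under the block rested on the other libraries. The cause was not tested. Over the 10 members less Calr3 and the genes named by rule from the lists, 531 other values kept their side of the threshold, 73 lost it and 10 passed it, all in the same direction.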
